A study of Rattus norvegicus with 56 samples.

Results

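The genes described here are 9 heat shock protein genes (Hspa1a, Hspa1b, Hspa8, Hsph1, Dnajb1, Hsp90aa1, Hspb1, Hspd1 and Hspe1) in primary cultures of rat hippocampal neurons. Members were chosen by name, and a gene was represented by its brightest probe among those whose RefSeq accession belongs to it. Probes were matched for 7 of the 9 genes, out of 13895 genes with a symbol among 35707 probes tested. No probe was matched to Hspa1b or Dnajb1, which are therefore not analysed here. Hspa1b is a near-identical copy of Hspa1a, and the probe sequence is not in the files used here, so the value named Hspa1a may hold signal from both genes. The group is labelled cytosolic, but Hspd1 and Hspe1 encode the chaperonin of the mitochondrial matrix, and they are kept apart from the 5 cytosolic members in the text. The names were put together with earlier results of these arrays over time and over series of sample numbers known. Changes over time and differences between series are therefore given as a description, with counts of calls but no p-values for the members. Lists of other genes used below were also chosen with earlier results known. Their adjusted p-values over time are therefore a description and not independent support.

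Neurons came from hippocampi of E18 Sprague Dawley rats. Dishes sat on an inverted coil and received repetitive transcranial magnetic stimulation as 1 Hz pulses or as intermittent theta burst stimulation (iTBS), both in repeated blocks. Sham dishes stood in the incubator with the coil at a distance, and untreated control cultures (CTR) were sampled at 0 h only. RNA of sham, 1 Hz and iTBS cultures was taken when stimulation had just ended (0 h) or 2, 8, 24 or 48 h later, which gave 16 groups and 56 arrays. Replicate 2 of 1 Hz at 2 h, whose grid was misplaced (25.3% of spots well above background), was not used. That left 55 arrays, with 4 per group in CTR, in iTBS at 0, 2 and 48 h, in 1 Hz at 8 and 48 h and in the first 2 sham times, with 2 in the group of 1 Hz at 2 h, and with 3 in every other group. Sample numbers in the descriptions fall into 4 series, called A (11 arrays used), B (12), C (17) and D (15) here. The labels do not say what these series stand for. The labels do not say whether the arrays of a group came from separate cultures, so p-values measure only the spread between these samples. On the 55 arrays 66.1% to 81.8% of spots were well above background, no spot was saturated, and all 7 member probes were well above background on 55 of 55 arrays. All 6 neuron markers were well above background on every array, as were all 6 astrocyte and all 6 oligodendrocyte markers, against 2 of 5 microglia and 2 of 4 endothelial markers with a tested probe. Levels are scaled log2 signals with a mean of 0 on each array, and a change is a difference of such levels on the log2 scale.

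Heat shock proteins are molecular chaperones, which bind unfolded protein and help it fold, keep it soluble or pass it on for degradation. Some are made all the time and are among the most abundant proteins of neurons, whereas others are made mainly under proteotoxic stress, when heat shock factor 1 binds heat shock elements in their promoters. In brain tissue the constitutive Hsc70 (Hspa8) is abundant in neurons, while stress-induced Hspb1 is often found in astrocytes.

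The heat shock element is an alternating repeat of short units, written TTCNNGAANNTTC for 3 units or, on the opposite strand, GAANNTTCNNGAA. The 250 bases before the RefSeq start (build GRCr8) were searched on both strands for all genes with a promoter sequence, and 222 of 33469 promoters (0.663%) held the repeat. A sequence was present for 7 of the 9 members (not Hspa1b or Hsp90aa1), and 4 of these 7 held it. The 4 sequences below are shown because Hspa1a and Hspb1 had the largest changes over time, while Hspa8 and the pair Hspd1 and Hspe1 did not have such a change. Capitals mark the repeat. They lie at chr20:3859506-3859755 (+ strand, Hspa1a), chr12:26432302-26432551 (- strand, Hspb1), chr8:50080264-50080513 (+ strand, Hspa8) and chr9:64084077-64084326 (+ strand, Hspe1).
Hspa1a: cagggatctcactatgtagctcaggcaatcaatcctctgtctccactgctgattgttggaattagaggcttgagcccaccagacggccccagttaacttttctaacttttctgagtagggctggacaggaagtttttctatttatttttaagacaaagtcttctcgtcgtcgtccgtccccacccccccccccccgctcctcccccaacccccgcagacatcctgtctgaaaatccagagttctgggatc
Hspb1: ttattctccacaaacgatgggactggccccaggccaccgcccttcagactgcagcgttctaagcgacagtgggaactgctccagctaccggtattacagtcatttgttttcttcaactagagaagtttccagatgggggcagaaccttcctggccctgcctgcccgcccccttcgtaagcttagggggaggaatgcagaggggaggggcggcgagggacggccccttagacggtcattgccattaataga
Hspa8: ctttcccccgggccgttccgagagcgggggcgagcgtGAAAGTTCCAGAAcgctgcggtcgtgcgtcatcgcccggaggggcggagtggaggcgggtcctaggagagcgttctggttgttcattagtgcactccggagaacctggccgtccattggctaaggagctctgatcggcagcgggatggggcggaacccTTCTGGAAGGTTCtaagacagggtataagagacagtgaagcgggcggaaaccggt
Hspe1: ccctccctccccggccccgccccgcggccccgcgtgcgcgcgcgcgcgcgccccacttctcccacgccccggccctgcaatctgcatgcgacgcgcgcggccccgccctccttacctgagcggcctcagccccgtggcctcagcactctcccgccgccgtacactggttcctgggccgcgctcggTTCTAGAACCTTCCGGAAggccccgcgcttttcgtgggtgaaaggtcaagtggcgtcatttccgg
Hspa8 held the repeat at 2 places, starting 213 and 55 bases before the start, and Hsph1 held it once, starting 36 bases before the start (TTCTGGAAAGTTC, chr12:10427118-10427367, + strand). Hspd1 and Hspe1 are transcribed away from each other with 289 bases between their starts, so the overlapping pair of matches in the Hspe1 sequence (65 and 60 bases before its start) is also that of Hspd1. The windows of Hspa1a, Hspb1 and Dnajb1 did not hold these letters, which says nothing about sites elsewhere.

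Hspa1a, the stress-inducible Hsp70, was higher at the late times in every arm. At 0 h the 11 arrays of sham, 1 Hz and iTBS had a lowest level of 0.44, a median of 1.01 and a highest of 1.48. At 24 h the 9 arrays ran from 1.33 over a median of 1.64 to 2.76, and at 48 h the 11 arrays ran from 1.62 over 2.07 to 2.95. All 11 arrays at 48 h were above the highest array at 0 h, as were 6 of 9 at 24 h. The mean of the arms was 1.90-fold higher at 24 h (log2 change 0.92, SE 0.19) and 2.27-fold higher at 48 h (1.19, SE 0.18) than at 0 h. The change was 0.35 (SE 0.18) at 8 h and -0.02 (SE 0.19) at 2 h. Sham cultures, which received no stimulation, showed the difference too, with a mean of 1.12 ± 0.28 (SD, n = 4) at 0 h, 1.75 ± 0.67 (n = 3) at 24 h and 2.26 ± 0.58 (n = 3) at 48 h. In the 1 Hz arm the mean went from 0.85 ± 0.24 (n = 3) at 0 h to 2.27 ± 0.60 (n = 4) at 48 h, and in the iTBS arm from 0.95 ± 0.41 (n = 4) to 1.95 ± 0.32 (n = 4).

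Hspb1, the small heat shock protein Hsp27 that binds unfolding proteins and actin filaments, had the widest spread of all members. At 0 h the 11 arrays ran from -0.92 over a median of 0.52 to 1.47. At 24 h the 9 arrays ran from 0.14 over 2.60 to 3.44, and at 48 h the 11 arrays ran from -0.12 over 1.61 to 3.66. The ranges overlapped, and 6 of 9 arrays at 24 h and 6 of 11 at 48 h were above the highest array at 0 h. The mean of the arms was 3.51-fold higher at 24 h (1.81, SE 0.49) and 2.94-fold higher at 48 h (1.56, SE 0.46). The changes at 2 h (0.19, SE 0.49) and 8 h (0.32, SE 0.48) were within their error. Sham cultures had a mean of 0.24 ± 0.91 (SD, n = 4) at 0 h, 2.06 ± 1.71 (n = 3) at 24 h and 1.56 ± 1.89 (n = 3) at 48 h. By arm, the difference between 48 and 0 h was 1.32 in sham, 1.28 in 1 Hz and 2.07 in iTBS.

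**Figure D1:**
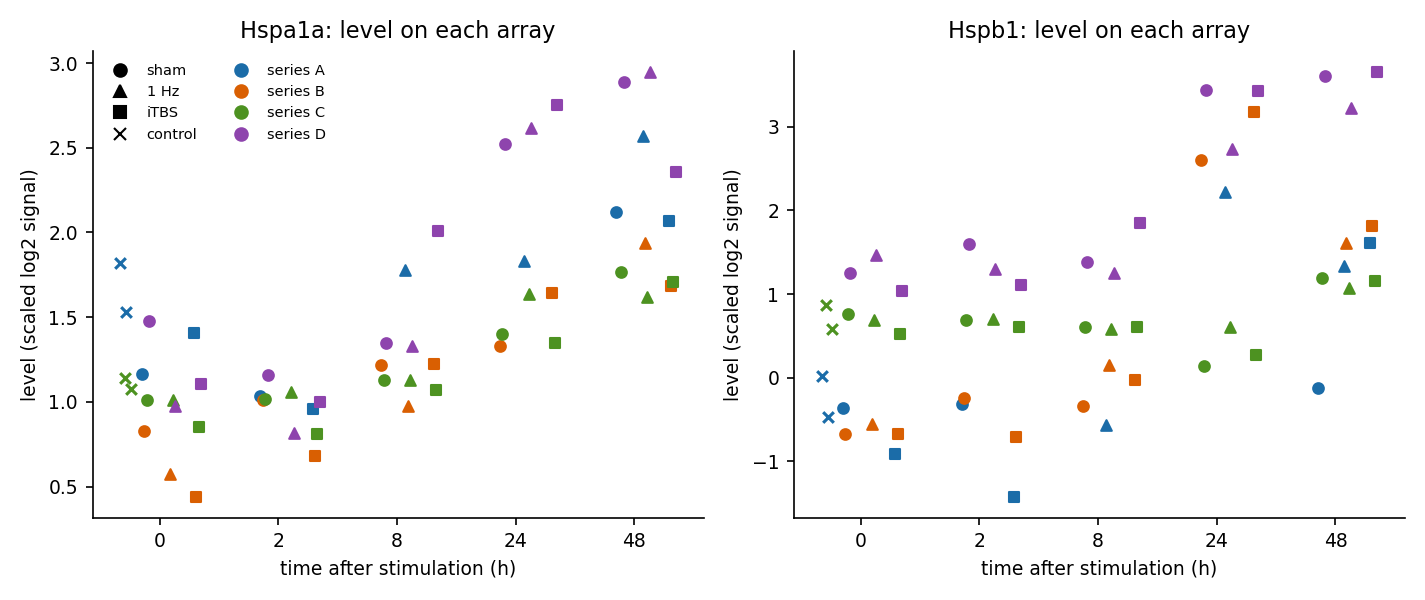
Level (scaled log2 signal) of Hspa1a and Hspb1 on each of 55 arrays by time after stimulation in h, with the arm as the shape and the series as the colour of a point. All 11 Hspa1a points at 48 h lie above the highest of the 11 sham, 1 Hz and iTBS points at 0 h (1.48), whereas the Hspb1 points at 0 and 48 h overlap.

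None of the other 5 members passed the test at a late time. Hsp90aa1, the stress-inducible Hsp90 that matures kinases and receptors, had a median of 9.85 at 0 h (range 9.37 to 10.73) and 9.45 at 48 h (8.70 to 10.16). Its mean was lower in all 4 series at both late times, with a change of -0.31 (SE 0.16) at 24 h and -0.28 (SE 0.16) at 48 h. Every late array lay below the highest array at 0 h, as also in Hsph1 and Hspe1. Hsph1, the Hsp110 that exchanges nucleotide on Hsp70, changed by -0.33 (SE 0.20) at 24 h and -0.29 (SE 0.19) at 48 h. Its lowest level at 48 h, 0.95, was on 1 array of series A (1 Hz at 48 h replicate 1). Hspa8, the constitutive Hsc70, changed by -0.11 (SE 0.25) and -0.22 (SE 0.24). The mitochondrial pair of Hspd1 (Hsp60) and Hspe1 (its lid, Hsp10) changed by 0.02 (SE 0.14) and -0.08 (SE 0.17) at 24 h and by -0.07 (SE 0.13) and -0.18 (SE 0.16) at 48 h. The 95% intervals of these late changes reached from -0.33 to 0.30 for Hspd1 and from -0.70 to 0.40 for Hspa8.

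Of 28 such comparisons of 7 members at 4 times, 4 had a limma p under 0.05 after Benjamini-Hochberg adjustment, namely Hspa1a and Hspb1 at 24 and 48 h, all higher. Over all probes 3.84% passed at 24 h (2.43% higher) and 10.8% at 48 h (6.13% higher), 0.218% at 8 h and 0% at 2 h. A fit with series as block called 14% of probes at 24 h and 27% at 48 h, and its member calls were again these 4. The median change of the 7 members was -0.08 at 24 h and -0.18 at 48 h, against -0.03 and -0.04 over all probes. Hspb1 at 24 h no longer passed without any 1 of 6 arrays (replicate 1 of sham at 0 h and of 1 Hz at 0 h, replicate 3 of sham, 1 Hz and iTBS at 24 h, and replicate 1 of iTBS at 24 h), with changes of 1.58 to 1.71, or with the slide as a block (1.70). At 48 h it no longer passed without any 1 of 4 (replicate 1 of sham and of 1 Hz at 0 h, replicate 3 of sham at 48 h, and replicate 4 of iTBS at 48 h), with changes of 1.21 to 1.45, or with the slide as a block (1.69).

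**Figure D2:**
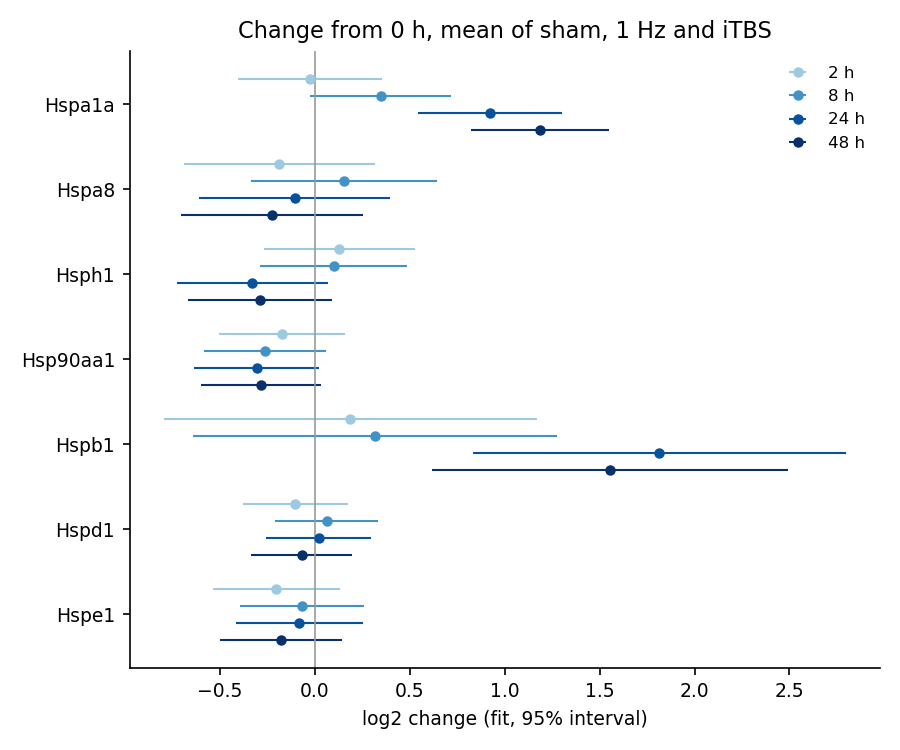
Log2 change of the 7 members from 0 h at the 4 later times, as the mean of the sham, 1 Hz and iTBS arms, with bars for the 95% interval of the fit on 55 arrays. Hspa1a and Hspb1 lie above 0 at 24 and 48 h, and every interval of the other 5 members includes 0.

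A second, dimmer Hspa1a probe changed in the same direction but by less, 0.49 (SE 0.35) at 24 h and 0.42 (SE 0.33) at 48 h, and did not pass. By series, its difference between 48 and 0 h was 0.08 in A, -0.35 in B, 0.31 in C and 1.03 in D. The signal of this probe was low, with a median of 45.7 intensity units against 246 for the brighter one. Among second probes of the other members, Hspd1 had 1 with a change of 0.08 (SE 0.10) and 1 with -0.14 (SE 0.12) at 48 h, on both sides of 0.

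The late difference was not the same in all series. The arms sampled also differed between times within series A and B. In A the only array at 24 h was 1 Hz, and those at 0 h were sham and iTBS. Series B had no 1 Hz array at 24 h and no sham array at 48 h. Hspa1a was higher at 48 h than at 0 h in all 4 series, by 0.97 in A, 1.20 in B, 0.74 in C and 1.55 in D. At 24 h its difference was 0.54, 0.87, 0.50 and 1.45. Hspb1 differed more between series. At 24 h it was 2.87 higher than at 0 h in A (1 array at 24 h), 3.53 in B and 1.95 in D, but -0.32 in C, where the 3 arrays at 24 h ran from 0.14 to 0.60 and the 3 at 0 h from 0.52 to 0.76. At 48 h it was higher in every series, by 1.58, 2.35, 0.49 and 2.25. Series A and B started low (-0.64 in each at 0 h), C at 0.65 and D at 1.25.

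The level of the members also differed between series, taken over sham, 1 Hz and iTBS arrays (9 in A, 12 in B, 15 in C and 15 in D). Hspb1 had the widest difference between series means, 1.99 between A (0.16) and D (2.16). For the other 6 members the difference between the highest and the lowest series mean ran from 0.53 in Hsp90aa1 to 0.72 in Hspe1. Hspd1 and Hspe1 were highest in B (8.57 and 8.85) and lowest in D (7.99 and 8.14). For Hspd1, Hspe1, Hsp90aa1, Hsph1, Hspa8 and Hspb1 the spread between series was wider than that between time means, and for Hspa1a the time means differed more (1.20 against 0.69). All 7 members passed the moderated F test for series, as did 75.4% of all probes. Series and slide ran largely together, so their parts cannot be told apart.

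Without a block, some astrocyte and neuron markers passed at 48 h (2 of 6 in each list), and 0 of 6 in each did at 24 h. The shares of all probes that passed were 10.8% at 48 h and 3.84% at 24 h. Gfap, the intermediate filament protein of astrocytes, was higher than at 0 h by 1.63 (SE 0.56, adjusted p = 0.099 in limma) at 24 h and 1.49 (SE 0.54, adjusted p = 0.065) at 48 h. Its 48 h change passed with the series as a block (1.64, adjusted p = 5.6e-07). That fit also called its 24 h change (1.49, adjusted p = 1.8e-05). Other markers called by it at 24 h were Aqp4 of the astrocyte list, which was higher (0.52, adjusted p = 0.036). Tubb3 (-0.64, adjusted p = 0.032) and Stmn2 (-0.49, adjusted p = 0.0028) of the neuron list were called lower. Of all probes, 14% passed in this blocked comparison. By series the Gfap difference at 24 h was smallest in C (0.66, against 2.36 in A, 2.02 in B and 1.59 in D), with 1 array in A at 24 h. Of the 6 astrocyte markers 2 rose at 48 h, the calcium-binding protein S100b (1.06, adjusted p = 1.4e-06) and the water channel Aqp4 (0.92, adjusted p = 0.017). The summed processed signal of the 6 markers ran from 102134 to 328970 at 0 h and from 179904 to 736918 at 48 h. These sums were not scaled between arrays and so also hold array brightness, and none of the 6 was at background. Of the 6 neuron markers 2 fell, Tubb3 (-0.62, adjusted p = 0.034) and Map2 (-0.66, adjusted p = 0.020), both of the cytoskeleton. Tubb3 was higher at 48 h in series B (0.63) and lower in the other 3 series, and with the slide as a block neither passed (-0.80 and -0.72). The summed signal of the 6 neuron markers, likewise not scaled, ran from 79368 to 219806 at 0 h and from 48113 to 329458 at 48 h. None of 5 microglia, 6 oligodendrocyte and 4 endothelial markers passed at 24 or 48 h. Over 55 arrays, which share series and slides, Pearson's r with Gfap was 0.87 for Hspb1 and 0.57 for Hspa1a, and with the mean of the 6 astrocyte markers 0.44 and 0.28. The part of astrocytes in the Hspb1 and Hspa1a values was not tested, and in such bulk samples fewer cells of a type and less RNA per cell cannot be told apart.

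**Figure D3:**
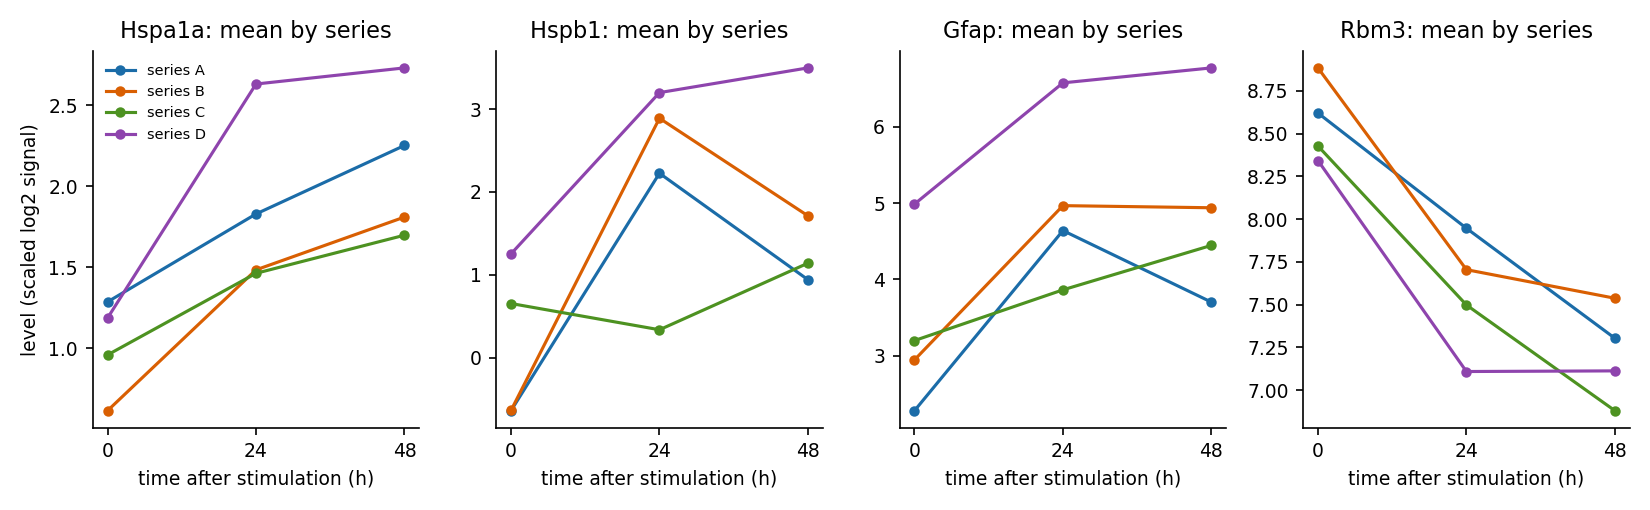
Mean level (scaled log2 signal) of Hspa1a, Hspb1, Gfap and Rbm3 at 0, 24 and 48 h after stimulation in series A, B, C and D, over sham, 1 Hz and iTBS arrays, with a separate vertical scale for each gene. Series A and B lacked some arms at some times. Hspb1 was lower at 24 h than at 0 h in series C (-0.32) and higher in the other 3 series, whereas Rbm3 was lower in all 4.

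Other chaperone genes were read from lists by compartment. Over all probes 3.84% passed at 24 h and 10.8% at 48 h (6.13% higher). With the series as a block 14% passed at 24 h and 27% at 48 h. In lists this small, counts near those shares are not read as a result about chaperones. Of 26 other genes in a list for Hsp70, Hsp90 and cochaperones, 5 rose and none fell at 48 h (median change 0.07). This list also holds Serpinh1 and the heat shock factors Hsf1 and Hsf2, which are not cochaperones. Bag3, a nucleotide exchange factor of Hsp70 in selective autophagy, rose 1.93-fold (0.95, SE 0.23, adjusted p = 0.0059), by 1.38 in series B, 0.98 in C and 1.55 in D but not in A (-0.05). Hspa4l, an Hsp110 relative, rose by 0.33 (adjusted p = 0.033), and Hspa2 (0.47) and the collagen chaperone Serpinh1 (0.63) also passed, named here after their values were seen. The fifth, Hspa1l, was well above background on only 2 of 11 arrays at 0 h and 5 of 11 at 48 h. At 24 h only Dnaja1, an Hsp40 of the cytosol, passed in this list without a block (-0.32, adjusted p = 0.032). With the series as a block 4 rose and 2 fell at 24 h. Among those that rose were Bag3 (0.71, adjusted p = 0.0066 in limma) and Hspa2 (0.47, adjusted p = 0.00068), and Dnaja1 again fell (-0.31). With the series as a block 6 rose and 4 fell at 48 h, among the latter Hsp90ab1 (-0.33, adjusted p = 0.028), the constitutive Hsp90. With 75th percentile scaling 2 rose, Bag3 and Hspa1l.

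Of 5 other small heat shock proteins none passed at 48 h (median change 0.17). The change was above 0 in 3 of these 5. Hspb3 changed by -0.60 (SE 0.31, adjusted p = 0.21 in limma), but was well above background on only 3 arrays, all at 2 h. Hspb6 changed by 0.70 (SE 0.27, adjusted p = 0.082) and Hspb8, the partner of Bag3, by 0.51 (SE 0.36, adjusted p = 0.39). Both passed with the series as a block (0.70 and 0.58), but with the slide as a block Hspb8 turned to -0.27. All 8 subunits of the cytosolic chaperonin, which folds actin and tubulin, had a change below 0 at 48 h (median -0.19), and 1 passed, Cct8 (-0.66, SE 0.13, adjusted p = 0.0013). With the series as a block 4 subunits passed and with normexp 3, all lower, and with the slide as a block Cct8 did not pass (-0.47). Over all probes 10.8% passed at 48 h without a block and 27% with the series as a block. Cct8 also fell at 24 h (-0.71, adjusted p = 0.0024). Of 6 other mitochondrial chaperones and proteases, 1 rose at 48 h, the unfoldase Clpx (0.33, adjusted p = 0.032). Of 11 chaperones of the endoplasmic reticulum 2 rose at 48 h, Sdf2l1 (0.77, adjusted p = 0.0041) and Hsp90b1 (0.60, adjusted p = 0.0498), and none passed at 24 h. Hsp90b1 did not pass under 75th percentile scaling (0.58), quantile normalization (0.59) or normexp background correction (0.47).

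Both cold-inducible RNA-binding protein genes, which are expressed more when cells are cooled, fell. Rbm3 changed by -1.11 (SE 0.17, adjusted p = 0.00015) at 24 h and -1.38 (SE 0.16, adjusted p = 7.8e-07) at 48 h. Cirbp changed by -0.65 (adjusted p = 0.00041) and -0.66 (adjusted p = 8.2e-05). Rbm3 was lower in all 4 series at 48 h, with changes of -1.32 in A, -1.35 in B, -1.55 in C and -1.23 in D. Over the 55 arrays, which share times, series and slides, Pearson's r of Rbm3 was -0.71 with Hspa1a and -0.70 with Hspb1.

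No member passed the test of a protocol against sham at the same time. Of 70 comparisons (7 members, 2 protocols, 5 times) 0 passed in limma, and the lowest adjusted p was 1.00. The unadjusted p was under 0.05 in 2 of them, both of Hspa8 after iTBS. Over all probes 0.0056% passed for 1 Hz at 2 h and for iTBS at 8 h, 0.0028% for 1 Hz at 8 h, and 0% in the other 7 comparisons. In 3 of the 70 comparisons the arrays of the groups did not overlap, against 2.64% over all probes and comparisons. These were Hspa8 at 0 h after 1 Hz and after iTBS, both higher, and Hspa1a at 2 h after iTBS, lower (-0.19).

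Hspa8 had the largest differences. At 0 h the sham arrays had levels of 11.09, 10.79, 10.70 and 10.68 and the iTBS arrays 12.14, 11.46, 11.54 and 11.79. All 4 iTBS arrays were above all 4 sham arrays, and the difference was 0.92 (SE 0.39, 95% interval 0.13 to 1.70). It did not pass in limma (adjusted p = 1.00, unadjusted p = 0.023). At 2 h the difference was 0.91 (SE 0.39, adjusted p = 1.00), with overlapping groups. At 8 and 24 h the differences were -0.55 and -0.46 (SE 0.45 in each). At 0 and 2 h alike, the iTBS array of each of the 4 series was above the sham array of that series. A limma fit blocking on series within time gave an adjusted p of 0.16 at 0 h and 0.38 at 2 h, so neither passed. Under other scalings the differences at 0 and 2 h were smaller. At 0 h the difference was 0.53 with the 75th percentile, 0.11 after quantile normalization and 0.06 after normexp, and at 2 h it was 0.60, 0.09 and 0.11.

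Hspa8 was the 15th brightest of 35707 probes by median signal, and its level followed the brightness of the array. Its processed signal ran from 157772 to 353534 intensity units, a 2.24-fold range, whereas its scaled level spanned 3.28 on the log2 scale, which is 9.74-fold. Its level had r = -0.92 over 55 arrays with the log2 of the 75th percentile signal of the array, from which the scaling is not independent. For the other members that r was -0.61 (Hsp90aa1), -0.60 (Hspd1), -0.53 (Hspe1), -0.29 (Hsph1), 0.32 (Hspb1) and 0.39 (Hspa1a). The part of array brightness in the Hspa8 difference was not tested.

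**Figure D4:**
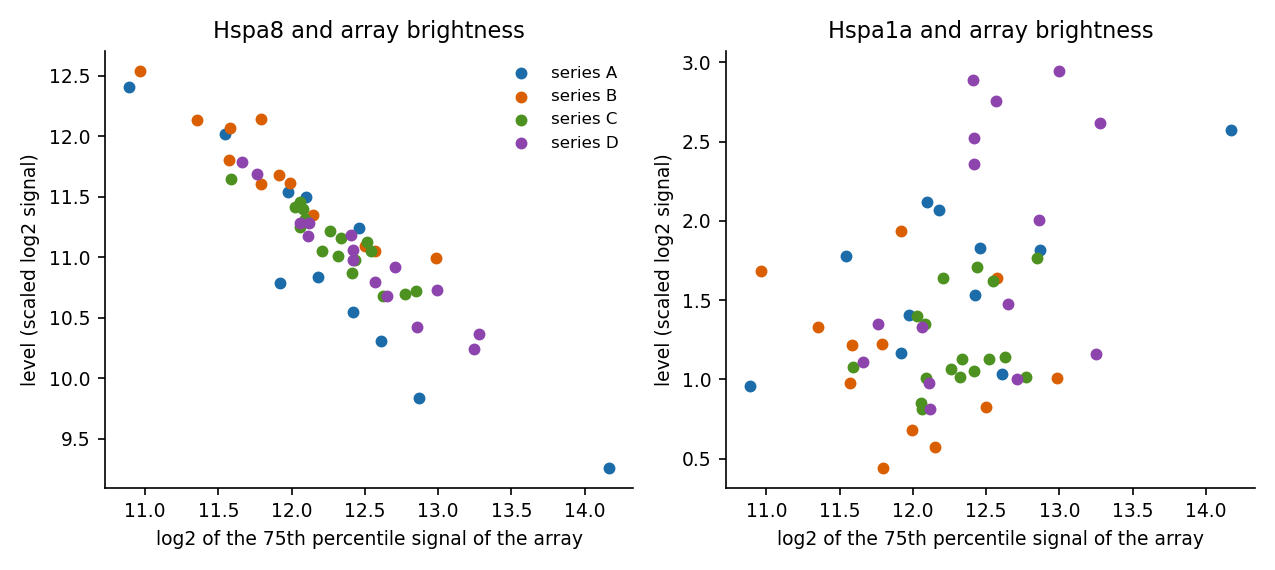
Level (scaled log2 signal) of Hspa8 and Hspa1a on each of 55 arrays against the log2 of the 75th percentile signal of the array, with the series as colour. Hspa8 falls along the axis (r = -0.92), and Hspa1a does not follow it in this way (r = 0.39).

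For the other members the differences from sham ran from -0.30 to 0.28 in Hspa1a, -0.54 to 0.57 in Hspb1, -0.54 to 0.37 in Hsph1, -0.21 to 0.34 in Hsp90aa1, -0.19 to 0.38 in Hspd1 and -0.31 to 0.49 in Hspe1, over 10 comparisons each. The 95% intervals reached from -0.95 to 0.97 in Hspa1a and from -2.08 to 2.45 in Hspb1. The 48 h change of Hspa1a over time (1.19) lay outside all of its 10 intervals. Hspd1 and Hspe1 had their highest values at 0 h after iTBS, 0.38 (SE 0.21) and 0.49 (SE 0.26), both with an adjusted p of 1.00. The median over the 7 members in that comparison was 0.34, that of Hsp90aa1, against -0.05 over all probes, and Hsp90aa1 turned to -0.24 after quantile normalization and -0.32 after normexp. None of the other chaperone, cold-inducible or cell type marker genes passed in any of the 10 comparisons.

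**Figure D5:**
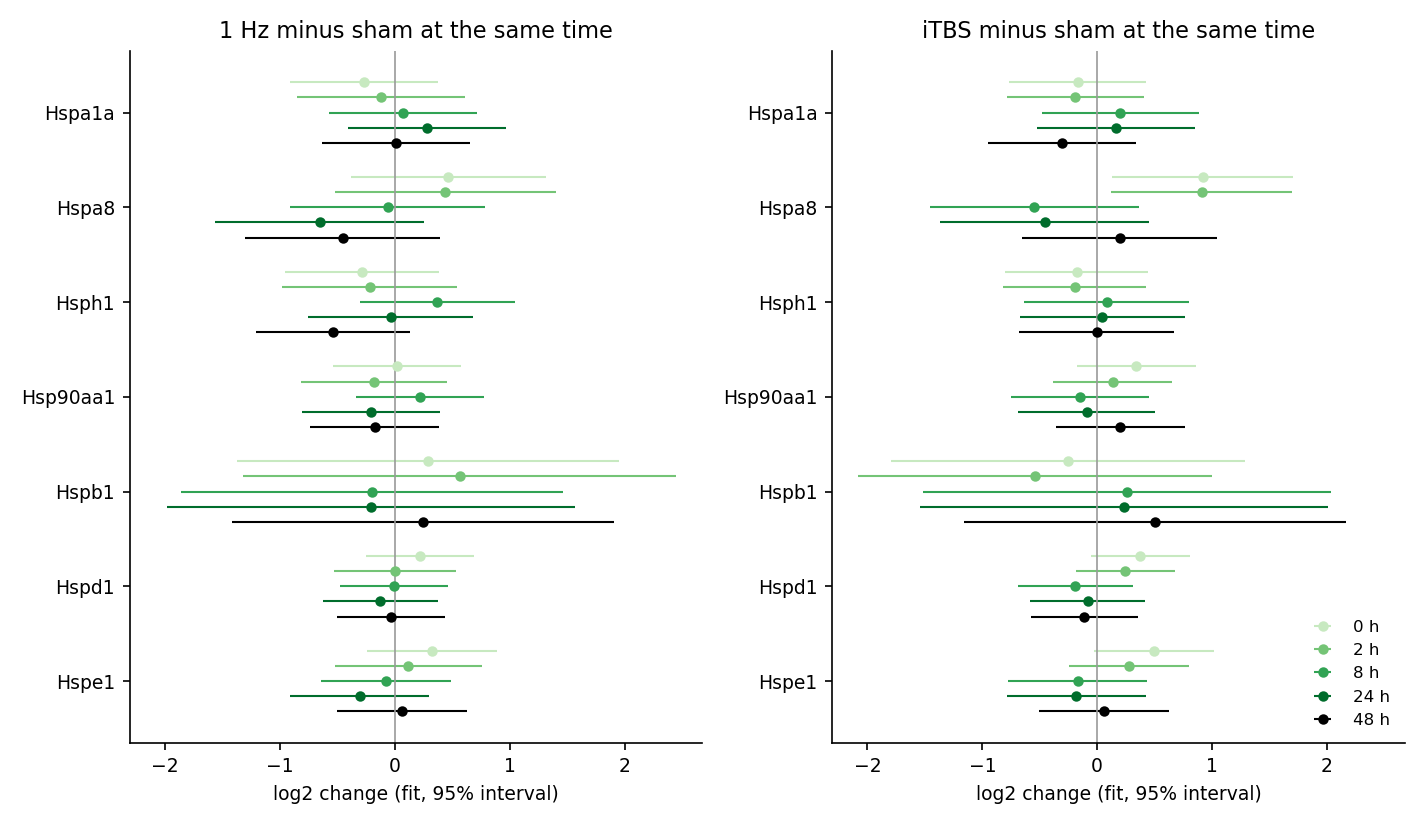
Log2 difference of the 7 members between 1 Hz or iTBS and sham at each of the 5 times, with bars for the 95% interval of the fit on 55 arrays. The intervals of 68 of the 70 differences include 0, and the other 2 are Hspa8 after iTBS at 0 and 2 h, which did not pass after adjustment.

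No member passed a direct comparison of the protocols. Averaged over the 5 times, 1 Hz and iTBS each gave 0 of 7 calls, as over all probes (0%), and the largest average difference was 0.20 (SE 0.19) in Hspa8 after iTBS. Between iTBS and 1 Hz, 0 of 35 comparisons passed, against 0.0056% of probes at 2 h, 0.0028% at 8 h and 0% at 0, 24 and 48 h, and none had an unadjusted p under 0.05. The largest was Hspb1 at 2 h (-1.11, SE 0.93, adjusted p = 1.00), where 1 Hz has 2 arrays. The test of whether the difference from sham varied with time gave 0 of 14 calls for the members and 0% of all probes for either protocol. Its lowest unadjusted p, 0.036, was that of Hspa8 for iTBS. None of the 7 members passed between untreated control and sham at 0 h (0.0028% of probes did), and the widest difference was 0.27 (SE 0.30) in Hspa1a. The 4 control arrays had Hspa1a levels of 1.82 and 1.53 in series A and 1.14 and 1.08 in series C.

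Likeness to other genes was described by Pearson's r over the 55 arrays, which share series, slides and scaling. The genes most like Hspa1a were Cp, the copper oxidase ceruloplasmin (r = 0.88), the kinase Jak3 (0.85) and Ccdc28a (0.84). The genes most like Hspb1 were Ptgr1 (0.94), Emp3 (0.91) and the lymphotoxin receptor Ltbr (0.91). Ptgr1 was dim, with a median signal of 16.3 intensity units, and was well above background on 48 of 55 arrays. The genes most like Hspd1 were the translation factor subunit Eif3i (0.92), Cand1 (0.92) and Micos10 of the mitochondrial inner membrane (0.91). Tuba1a, an alpha-tubulin, and Actg1, the cytoplasmic gamma-actin, were among those most like Hspa8 (0.99 each) and ranked 4 and 26 in brightness. Among the members the highest r was 0.89 between Hspd1 and Hspe1, followed by 0.72 between Hspa8 and Hspd1, 0.69 between Hspa8 and Hspe1, and 0.69 between Hspa1a and Hspb1.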

How the data were processed

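Total RNA was labelled with 1 dye and hybridized to Agilent SurePrint G3 rat arrays, 1 sample per array. The deposited scanner files hold the intensity of each spot, extracted by the authors with Agilent Feature Extraction 12.0.3.1, background-corrected with no scaling between arrays. A score per spot in the deposited matrix is the z-score of log10 intensity within an array, made by the authors, and recomputed z-scores differed from it by at most 0.005. The scanner files name build rn4.

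Outlier spots were left out, log2 processed signals were averaged per probe (420 of 45598 probes dropped), z-scored within each array as in the study's methods and rescaled by the median array SD (4.06). A probe was tested if well above background on at least 3 arrays, which removed 9471 probes and left 35707. Symbols came from a RefSeq table (GRCr8) by accession without version and were found for 21109 probes. Group means were fitted with limma 3.58.1 (lmFit, eBayes, R 4.3.3) on 55 arrays, with 39 residual and 2.82 prior degrees of freedom, two-sided, with Benjamini-Hochberg adjustment over all probes in each comparison. The number of arrays limits the precision. The fit was tested on simulated data with independent noise and no series differences, in which it recovered changes put in at 48 h. Comparisons of a protocol with sham were not simulated.

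Members and lists were chosen with earlier results of these data known. Named genes were the 9 members by their brightest probe, up to 3 genes of each list with the smallest p in the comparison described, and for Hspa1a, Hspa8, Hspb1 and Hspd1 the 3 other genes with the highest r. Of the latter, 1 is not reported here. Second probes of members were to be named where they disagreed in direction, and that of Hspa1a was added because its call differed.

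The series was taken from sample numbers in the descriptions. Deviations from group means correlated by a mean of 0.16 (lowest -0.46) between arrays with the same replicate number in the title, which therefore do not pair samples, and by 0.40 between arrays of the same series. Alternatives were 75th percentile scaling, quantile normalization, normexp background correction on median signals (offset 50), no filter, all 56 arrays, blocks for replicate number, series, series at each time and slide, and leaving out each array. The authors' z-scores, and the series block with 75th percentile scaling, were added after seeing the data.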

Additional observations from a re-analysis of the deposited data

Results flagged for a closer look

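Within groups of 4 arrays, 56 combinations of member and group were screened for 1 array standing far from the other 3, which chance gives in about 1 of 20, and 3 were found. Hsp90aa1 had a level of 10.48 in 1 Hz at 8 h replicate 1 (series A), against 9.46 to 9.56 in the other 3 arrays. Hspa8 had a level of 12.54 in iTBS at 48 h replicate 2 (series B), against 10.84 to 10.98. Hspa1a had a level of 1.16 in sham at 2 h replicate 4 (series D), against 1.01 to 1.03. No member passed the test of iTBS against 1 Hz or of a protocol over time.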

How the results depend on the processing

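Counts of member calls kept their size under 75th percentile scaling, quantile normalization, normexp, no filter and the replicate and series blocks. Those of the other lists at 48 h did not, nor did those of the Hsp70 and Hsp90, astrocyte and neuron lists at 24 h. The share of all probes that passed at 48 h also differed, with 10.8% without a block and 27% with the series block. Of the Hsp70 and Hsp90 list 5 rose, against 2 with 75th percentile scaling, 3 after quantile normalization, 2 with normexp and 6 (with 4 lower) with the series block. The series block called 4 chaperonin subunits (1 without a block, 3 with normexp), 4 chaperones of the endoplasmic reticulum (2 without a block, 1 under each of the 3 scalings), 2 small heat shock proteins (0 without a block), 2 mitochondrial chaperones (1 without a block), 3 neuron markers (2 without a block) and 4 astrocyte markers (2 without a block, 3 after quantile normalization and with normexp). For the members, later times against 0 h gave 4 of 28 calls under each of the settings named first and the authors' z-scores, 5 with the series block and 75th percentile scaling (Hsp90aa1 at 48 h, -0.26, in addition), 2 with the slide as a block, and 2 to 4 when single arrays were left out. With the replicate block it gave 4, and among the list genes named Hspb6 and Gfap then passed at 48 h (0.70 and 1.49). Leaving out single arrays gave 0 calls for a protocol against sham, iTBS against 1 Hz, the averages, the protocols by time and control against sham, and 7 for series. Including the array with the misplaced grid gave 4 calls for a protocol against sham and 3 for iTBS against 1 Hz, all at 2 h, but 1 for later times and 4 for series. Among list genes at 48 h, Hspa2, Hspa4l, Serpinh1, Cct8, Clpx, Sdf2l1, Tubb3, Map2 and Aqp4 did not pass with the slide as a block, and calls were lost when single arrays were left out for Hsp90b1 (39 of 55 arrays), Serpinh1 (33), Hspa2 (12), Clpx (9), Tubb3 (9), Hspa4l (8) and Map2 (3). In comparisons with sham the median change of all probes reached 0.12 under the authors' z-scores and -0.47 with all 56 arrays, which also gave -0.17 for later times. Small changes turned sign. With quantile normalization these were Hspa8 at 24 and 48 h (0.0668 and 0.0133), Hspe1 at 24 h (0.0074), Hspd1 at 48 h (0.0189) and Hsp90aa1 for iTBS at 0 h (-0.24). With normexp they were Hspa8 and Hspe1 at 24 h (0.0436 and 0.0214), Hspd1 at 48 h (0.0015) and Hsp90aa1 for iTBS at 0 h (-0.32). With all 56 arrays they were Hsph1 and Hspb1 at 2 h (-0.45 and -0.15), with the replicate block Hspd1 at 24 h (-0.0338), and with the slide block Hspa1a at 2 h (0.19), Hspa8 and Hspd1 at 8 h (-0.22 and -0.0597), Hspd1 at 24 h (-0.0525) and, at 48 h, Hspb8 (-0.27), Trap1 (-0.0223), Itgam (-0.11), Csf1r (-0.60) and Cx3cr1 (-0.59). Leaving out single arrays turned Hspa1a at 2 h (-0.0812 to 0.0261), Hspd1 at 24 h (-0.0433 to 0.096), Hspe1 at 8 h (-0.11 to 0.0113) and 24 h (-0.15 to 0.0154), and Hspa1a for iTBS at 48 h (-0.55 to 0.0122). The causes of these differences were not tested.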
